A study of Drosophila melanogaster with 30 samples.

Results

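Brains of isolated male Drosophila melanogaster that lack doublesex (dsx) function were compared with brains of isolated wild-type males. The comparison took the 3 libraries labelled dsx mutant, single housed, and the 3 libraries labelled Canton-S (CS), single housed, which are 6 of the 30 libraries in the series. Each library holds polyadenylated RNA from a pool of 30 brains. The mutant males carried the genotype w-/Y; +/+; dsxf00683-d07058/f01649-d09625, which pairs 2 dsx alleles on the third chromosome with a white-minus X chromosome, and the wild-type males were Canton-S. The same genotypes were also kept in groups (3 dsx and 3 CS libraries), and isolated mutants of Or47b (w+/Y; Or47b2/3;+/+), Or67d (w+/Y; +/+; Or67dGAL4/GAL4) and fru (w+/Y; +/+; fruLexA/4-40) gave 3 libraries each. Mutant and wild type are different stocks, so the loss of dsx and the rest of the genetic background cannot be told apart in any difference given here. Nothing in the labels says that the pools of a group came from separate cultures, and p values therefore measure the spread between pools only.

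doublesex is the last gene of the somatic sex determination cascade. Its transcript is spliced into a male and a female form, and the proteins DsxM and DsxF are transcription factors of the DMRT family that direct sexual differentiation of the body and of part of the nervous system. The yolk protein genes are the textbook targets: in the fat body of the female DsxF activates them, and in that of the male DsxM represses them. In the brain dsx is made in few neurons, many of which belong to courtship circuits. Values summed per gene do not separate the male and female transcript forms.

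The 6 libraries held 41.8 to 58.3 M gene counts, near the median of 47.9 M over all 30, and levels are given in CPM, the counts of a gene per M counts of its library after scaling by the trimmed mean of M values (TMM). A deposited table assigns every library to a dissection group AC or notAC, with no key. All dsx libraries are notAC, whereas CS isolated replicate 2 is AC, and the tests carry a term for it, which was called in 54.7% of genes. That library stood apart from its group: 94 tested genes were over 5 times higher in it than in either other CS isolated library and above 1 CPM, against 4 to 15 such genes in each of the other 5 libraries. Of those 94 genes, 22 were called lower in dsx and 3 higher, and the 22 are 23.4% of them, the same share as over all genes. Genes of the mitochondrial genome took 12.9% to 14.1% of gene counts in the dsx isolated libraries and 2.99% to 4.56% in the CS isolated libraries. Across the series the 6 dsx libraries lay between 12.4% and 14.1% and the other 24 between 2.51% and 11.2%, so this share was highest in the dsx genotype. It also varied within other genotypes, from 4.42% to 10.3% in CS grouped and from 2.76% to 11.2% in fru isolated.

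The number of genes that differed was large. Of 11269 genes tested, 4745 (42.1%) passed an adjusted p of 0.05 in edgeR's quasi-likelihood test, with 2112 (18.7%) higher and 2633 (23.4%) lower in dsx. A change past 2-fold was called for 1161 genes (10.3%), of which 552 (4.9%) were higher and 609 (5.4%) lower. The 3 dsx libraries lay wholly above or wholly below the 3 CS libraries for 4446 of the called genes, and did so for 57.2% of all genes tested. The median absolute log2 change was 0.32 over all genes. With the mitochondrial share of each library as a further term the count was 1124, of which 1027 were called in the same direction without that term. The share and the genotype nearly coincide in this comparison, the median standard error rose from 0.132 to 0.204 with the term, and how much of the difference belongs to either was not tested.

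**Figure D1:**
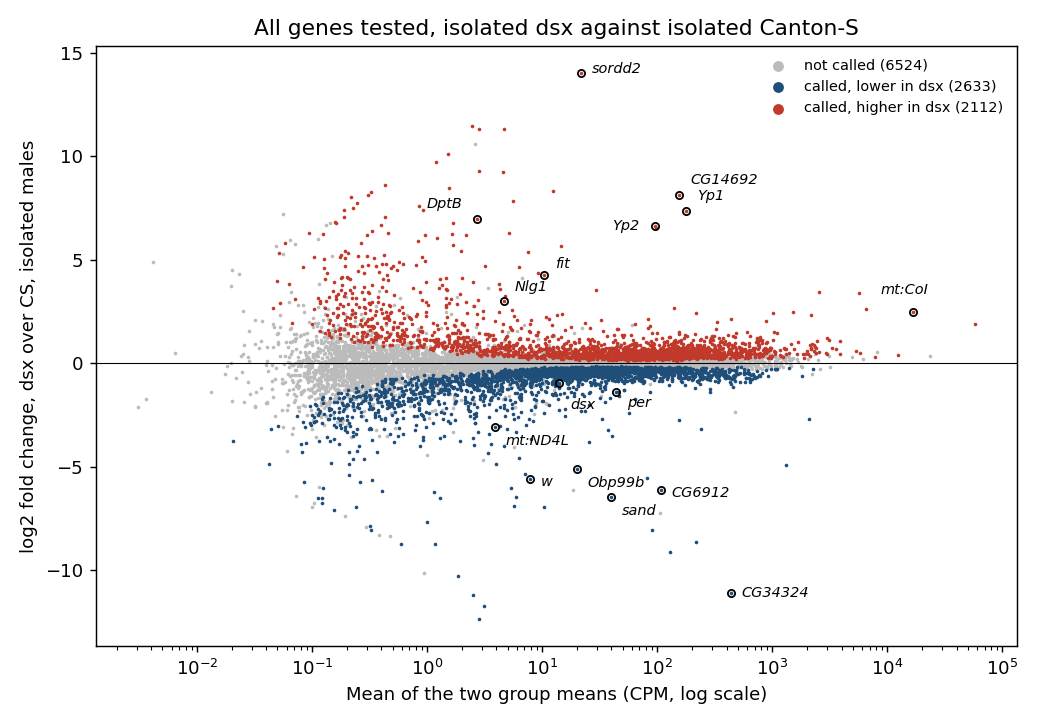
Each point is a tested gene, with the mean of the 2 group means in CPM on a log axis and the log2 fold change of dsx over CS in isolated males on the vertical axis. Red points were called higher (2112), blue points called lower (2633) and grey points not called, and named genes are circled: CG14692 and Yp1 stand at the top among abundant genes, and CG6912 and CG34324 at the bottom.

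The targeted gene was read first. dsx (FBgn0000504, 3R 7924323 to 7967408, minus strand, Ensembl annotation of BDGP6) stood at 10.2, 9.87 and 8.35 CPM in the dsx isolated libraries and at 20.6, 20.3 and 15.4 CPM in the CS isolated libraries. The groups did not overlap, and transcript was reduced but not lost (log2 change -0.97 ± 0.17 SE, edgeR adjusted p = 0.000131). In group-housed males the log2 change of dsx was -0.51 (adjusted p = 0.0334). The 6 dsx libraries of both housings lay at 8.35 to 10.2 CPM and the other 24 libraries at 12.8 to 26.3 CPM. The dsx gene overlaps lds, a helicase gene on the opposite strand, by a short stretch, and lds was higher in dsx, at 3.03, 3.00 and 2.80 against 1.34, 1.80 and 1.37 CPM (log2 change 0.94, adjusted p = 0.000818). Whether counting used strand is not stated.

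The white gene, which differs between the stocks, was read as well. w (white, an ABC transporter that imports eye pigment precursors, X 2790599 to 2796466) stood at 0.295, 0.450 and 0.163 CPM in dsx and at 13, 16 and 16.9 CPM in CS (log2 change -5.60 ± 0.27, adjusted p = 2.36e-13). The 6 dsx libraries lay at 0.163 to 0.478 CPM and the other 24 at 1.38 to 18.2 CPM. The 6 Or67d libraries, whose label gives w+, lay at 1.38 to 2.16 CPM. That is below every other library labelled w+ or CS and above every dsx library, and the reason was not tested. Within 0.1 Mb of w 12 of 21 tested genes were called (57.1%), 10 lower and 2 higher. From 0.1 to 0.25 Mb 12 of 23 were called (52.2%), 9 lower and 3 higher, and from 0.25 to 0.5 Mb 6 of 18 (33.3%), 3 each way. Over all genes 42.1% were called, 18.7% higher and 23.4% lower. Past 2-fold the shares were 4.76%, 8.70% and 0%, against 10.3% of all genes. The part of position near w was not tested. fru, the other transcription factor gene at the end of the cascade, stood at 197, 194 and 191 CPM against 176, 169 and 174 CPM. That difference did not pass the test (log2 change 0.18 ± 0.12, adjusted p = 0.234).

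The yolk protein genes were far above the male wild-type level in the mutant. Yp1 (X 10053811 to 10055498) stood at 383, 303 and 368 CPM in dsx and at 2.03, 3.03 and 4.69 CPM in CS (log2 change 7.36 ± 1.60, edgeR adjusted p = 0.000912). Yp2 (X 10050951 to 10052636) stood at 206, 170 and 190 CPM against 2.19, 3.30 and 3.23 CPM (log2 change 6.63 ± 1.31, adjusted p = 0.000401). Yp3 (X 13759546 to 13761547) stood at 209, 172 and 186 CPM against 1.70, 8.75 and 3.83 CPM (log2 change 6.54 ± 1.34, adjusted p = 0.00057). No library of either group came near the other. The 3 genes encode the proteins that females load into eggs, and the fat body is their main source. The 3 group-housed dsx libraries lay at 262 to 382 CPM for Yp1, 163 to 217 CPM for Yp2 and 211 to 257 CPM for Yp3. In 23 of the other 24 libraries the highest values were 22.5, 16.3 and 19.8 CPM. The remaining one, fru isolated replicate 3 (AC), held 1154 CPM of Yp1, 759 CPM of Yp2 and 877 CPM of Yp3, above every dsx library, while the other 2 fru isolated libraries held 0.349 to 0.754 CPM of Yp1. All 3 calls were lost when the mitochondrial share was a term, although the log2 changes of Yp1, Yp2 and Yp3 stayed at 7.0, 6.64 and 6.49.

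2 further genes with known sex-biased expression outside the brain moved in opposite directions. fit (female-specific independent of transformer), which is expressed in the fat body around the brain and is higher in females, stood at 18.6, 18.1 and 20.1 CPM in dsx and 1.01, 3.99 and 0.529 CPM in CS (log2 change 4.26 ± 0.50, adjusted p = 1.15e-06). Obp99b, an odorant-binding protein gene with male-biased fat body expression, stood at 1.06, 0.350 and 0.406 CPM in dsx and 14.5, 89.5 and 13.7 CPM in CS (log2 change -5.12 ± 0.66, adjusted p = 3.84e-06). The highest CS value of both genes was that of replicate 2. Against the mean of the 3 other isolated mutants Obp99b was lower as well (log2 change -6.40, adjusted p = 5.29e-08), and fit was higher (2.60, adjusted p = 2.84e-06). The isolated fru libraries held 8.13, 15.7 and 63.3 CPM of fit, the last of which lay above every dsx library.

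**Figure D2:**
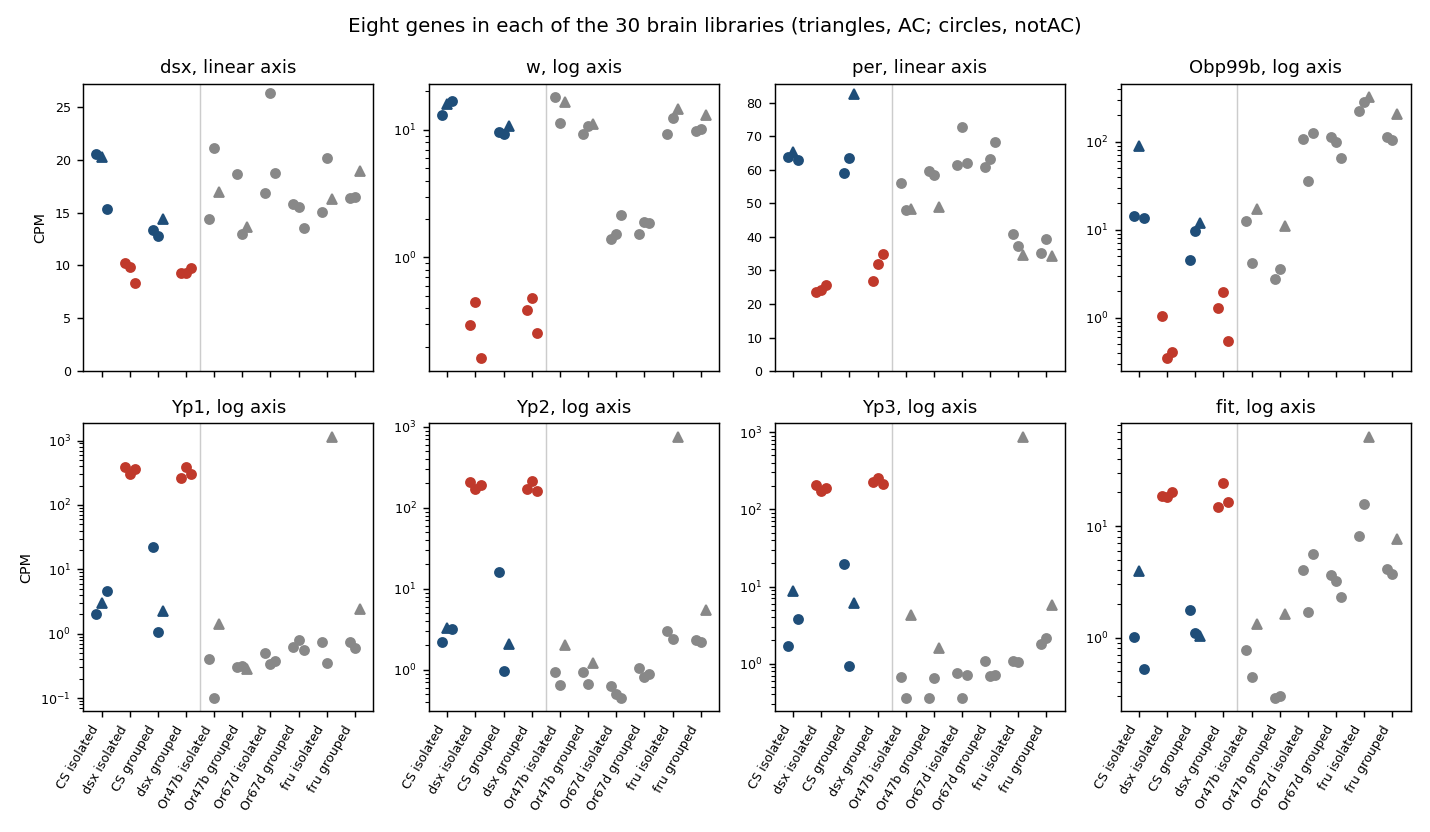
Levels of 8 genes in CPM in each of the 30 libraries, grouped by genotype and housing, with red for dsx, blue for CS and grey for other mutants; triangles are AC libraries and circles notAC, and the axes are linear for dsx and per and log for the rest. The 6 dsx libraries lie below all 24 others for dsx, w and Obp99b and above all but fru isolated replicate 3 for Yp1, Yp2 and Yp3.

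Fat body tissue lies against the brain, so its markers were read beside these genes. Of 15 fat body markers tested, 6 were higher and 3 lower in dsx (60% called, against 42.1% of all genes). Those 9 include the 3 yolk protein genes, fit and Obp99b. apolpp, the abundant lipid carrier of this tissue, stood at 640, 607 and 632 CPM against 516, 978 and 481 CPM and was not called (log2 change 0.26, adjusted p = 0.289). Lsp2, a storage protein gene, stood at 609, 450 and 713 CPM against 117, 612 and 117 CPM, so that the groups overlapped through CS replicate 2. Its call (log2 change 2.14, adjusted p = 0.0136) was lost without CS replicate 1, without CS replicate 3 and without the batch term. The summed level of the 15 markers was 2185 to 2583 CPM in dsx and 1162 to 2539 CPM in CS. That sum includes Yp1, Yp2 and Yp3, so it does not measure attached fat body apart from them. The part of attached fat body in the yolk protein difference was not tested. In pooled tissue more cells of a type and more RNA per cell cannot be told apart.

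In the cascade above dsx some genes were called and others were not. Of 15 sex determination genes tested, 3 were higher and 4 lower, a share of 46.7% against 42.1% over all genes. Sxl, the splicing regulator at the top of the cascade, stood at 633, 648 and 603 CPM in dsx and 348, 303 and 336 CPM in CS (log2 change 0.96 ± 0.19, adjusted p = 0.000366). vir, part of the RNA methylation complex that acts on Sxl splicing, stood at 29.2, 30.1 and 30.8 CPM against 46.5, 41.1 and 42.7 CPM (log2 change -0.63 ± 0.10, adjusted p = 5.74e-05). The splicing factors tra and tra2, which set the dsx splice form, were not called, with log2 changes of -0.21 and -0.02. retn, a transcription factor gene known to hold back male courtship in females, was lower, at 1.83, 1.85 and 1.91 against 3.60, 9.85 and 4.29 CPM (log2 change -1.12, adjusted p = 0.000193), but not in group-housed males (-0.24, adjusted p = 0.436). The calls of Sxl, vir and retn were lost with the mitochondrial share as a term, where the log2 change of Sxl was 0.04.

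Among other genes tied to somatic sex, the pheromone receptor gene Or67d was lower in dsx at a very low level, 0.0393, 0.05 and 0.0813 against 0.145, 0.279 and 0.511 CPM (log2 change -2.29, adjusted p = 0.00166). bab1, a pigmentation gene under DSX control in the abdomen, was slightly higher (log2 change 0.38, adjusted p = 0.00671). That call was lost within the notAC libraries, and bab2, Tdc2 and Poxn were not called. In all, 5 of 16 members of this list were higher and 2 lower (43.8% called, near the 42.1% of all genes), and the list overlaps that of fat body markers.

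The genes with the smallest adjusted p ranged from some near presence or absence to some with modest changes, with absolute log2 changes of at least 1.51 among the 15 higher and 1.10 among the 15 lower. CG14692 (3R 10794058 to 10803955), whose role is not given here, stood at 312, 305 and 309 CPM in dsx and at 0.476, 2.94 and 0.621 CPM in CS (log2 change 8.13 ± 0.36, edgeR adjusted p = 5.86e-14). Its mean was 1.07, 0.809 and 0.497 CPM in the isolated fru, Or47b and Or67d mutants, so among isolated males it was high in dsx only. sordd2 (X 15796908 to 15799162) stood at 35.3, 50.5 and 45.1 CPM in dsx and had no count in the 3 CS isolated libraries, which makes it at least 2149-fold higher when the whole CS group is set at 3 counts. It was not particular to dsx, with a mean of 68.4 CPM in the isolated fru mutant. CG6891 stood at 14.7, 16.6 and 12.5 CPM against 0.290, 0.622 and 0.420 CPM. CG17801 stood at 9.68, 10.5 and 10.3 CPM against 0.145, 0.0858 and 0.110 CPM. Both were also below 1 CPM on average in the 3 other isolated mutants.

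Several of the higher genes have known roles. ZnT77C, a zinc transporter gene, stood at 53.7, 50.3 and 54.1 CPM in dsx and 4.88, 8.17 and 3.52 CPM in CS (log2 change 3.52 ± 0.19, adjusted p = 2.92e-12). rec, a gene of meiotic recombination, stood at 9.81, 9.85 and 9 CPM against 1.70, 1.16 and 1.53 CPM (log2 change 2.58, adjusted p = 1e-10). kat80, which encodes a subunit of the microtubule-severing katanin, stood at 121, 165 and 122 CPM against 40.9, 30.4 and 38.5 CPM (log2 change 1.78, adjusted p = 1.17e-10). Irc, an immune-regulated catalase gene, stood at 210, 222 and 238 CPM against 75.3, 93.0 and 81.7 CPM (log2 change 1.51, adjusted p = 7.76e-10). cGlr2, which encodes a cGAS-like receptor of antiviral defence, stood at 23.3, 24.7 and 23.4 CPM against 8.42, 6.57 and 7.58 CPM (log2 change 1.59, adjusted p = 3.76e-11). These 5 genes were picked for a small adjusted p and a lack of overlap, so the gap between their groups follows from that choice.

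The lower genes included an ion channel and a cytoskeletal gene. sand (sandman, 2R 8091696 to 8096948), a leak potassium channel known for its part in sleep control, stood at 1.08, 0.8 and 0.732 CPM in dsx and 73.1, 80.5 and 82.0 CPM in CS (log2 change -6.44 ± 0.25, adjusted p = 5.76e-15). It overlaps another gene, uno, and its mean was 0.222 CPM in the isolated fru mutant and 41.4 and 52.5 CPM in the Or47b and Or67d mutants. d (dachs), an atypical myosin of the Fat pathway, stood at 0.216, 0.100 and 0.142 CPM against 11.6, 9.31 and 10.5 CPM (log2 change -6.04, adjusted p = 1.6e-11). The isolated fru and Or47b mutants were low for d as well, at means of 0.467 and 0.225 CPM, and the Or67d mutant was not, at 6.45 CPM. CG6912 (3R 15135138 to 15137004) stood at 2.99, 2.67 and 2.60 CPM against 170, 249 and 217 CPM (log2 change -6.11 ± 0.19, adjusted p = 1.03e-16), with a mean of 4.81 CPM in the fru mutant and 167 and 193 CPM in the Or47b and Or67d mutants. asRNA:CR45600, which overlaps its end, had the same order of groups, and reads of the overlap cannot be assigned from these counts. Cyp6a17, a cytochrome P450 gene known for its part in temperature preference, stood at 6.92, 8.40 and 5.63 CPM in dsx and 57.0, 74.2 and 73.5 CPM in CS (log2 change -3.22, adjusted p = 4.56e-11). Its means of 37.0 to 57.9 CPM in the other isolated mutants were also above dsx. Thus some of these genes were low in dsx alone among the isolated mutants, and others shared their level with fru or Or47b.

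All 15 higher and all 15 lower genes of this kind were called in the same direction in group-housed males, with no overlap between the groups. Over all genes, 8.12% were called higher and 13.6% lower there. The share of all genes without overlap in the group-housed libraries was not counted, so the lack of overlap has no background to be read against. Those libraries are not among the groups of the isolated comparison, but they are part of the same fit and its AC term. Set against the mean of the 3 other isolated mutants, with the same dsx libraries, CG31817 (log2 change -0.06, adjusted p = 0.784) and pre-lola-G (-0.25, adjusted p = 0.0618) were not called, whereas both were called against CS.

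Genes near the mutated locus were not called more often. Within 500 kb of the start of dsx, 40 of 103 tested genes were called (38.8%, against 42.1% of all genes), and 7 of them past 2-fold (6.80%, against 10.3%). Nlg1 (3R 7658247 to 7694874), a neuroligin that organises synapses, was the most changed by adjusted p, at 8.63, 7.52 and 7.82 CPM in dsx and 0.848, 2.17 and 0.858 CPM in CS (log2 change 2.99 ± 0.31, adjusted p = 1.54e-07). Nlg3, its neighbour and paralogue, stood at 225, 231 and 230 CPM against 166, 124 and 155 CPM (log2 change 0.54, adjusted p = 0.000746). COX7AL, a cytochrome c oxidase subunit paralogue, stood at 0.551, 0.575 and 0.630 CPM against 0.0207, 0 and 0.0183 CPM. Nlg1 was also higher in group-housed dsx males (log2 change 3.45, adjusted p = 1.98e-08), as was COX7AL (4.6, adjusted p = 0.00024). Within 0.1 Mb of dsx 11 of 23 genes were called (47.8%), 6 higher and 5 lower. Next to dsx and lds, CG10445 and CG2678 were higher at low levels (log2 changes 1.755 and 0.77, edgeR adjusted p = 8.15e-05 and 0.0106). Both were higher in group-housed males too (1.85 and 0.91, adjusted p = 5.69e-05 and 0.00785). The call of CG2678 was lost without the batch term and with the mitochondrial share as a term.

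The circadian clock genes split. per, a repressor of the clock loop, stood at 23.6, 24.1 and 25.7 CPM in dsx and 63.8, 65.2 and 62.8 CPM in CS (log2 change -1.39 ± 0.12, edgeR adjusted p = 7.65e-09). It lies 105 kb from w on the X chromosome, and it overlaps dyw. tim, the partner of per, went the other way, at 166, 190 and 175 CPM against 74.7, 95.4 and 58.9 CPM (log2 change 1.28 ± 0.24, adjusted p = 0.000233). cry, the blue-light photoreceptor of the clock, stood at 56.4, 51.1 and 54.6 CPM against 75.8, 83.5 and 83.4 CPM (log2 change -0.56, adjusted p = 0.000577). The activator Clk was not called (log2 change 0.17, adjusted p = 0.395). Of 8 clock genes 3 were higher and 3 lower (75.0% called, against 42.1% of all genes). per and tim were called in the same directions in group-housed males (log2 changes -1.15 and 0.74), whereas cry was not called there (0.14, adjusted p = 0.407). The time of dissection is not given in the sources used here. The calls of tim and cry were lost with the mitochondrial share as a term, and that of per was kept (log2 change -1.14).

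Hormone and transmitter genes showed moderate differences. Ilp3, an insulin-like peptide gene of the brain's median neurosecretory cells, stood at 87.0, 76.1 and 93.4 CPM in dsx and 31.6, 30.0 and 34.0 CPM in CS (log2 change 1.36 ± 0.25, edgeR adjusted p = 0.000182). It was also higher in group-housed males (2.40, adjusted p = 3.84e-07). With the mitochondrial share as a term its call in isolated males was lost (0.98, adjusted p = 0.114). Ilp2, another insulin-like peptide gene, was lower in isolated dsx males (log2 change -0.60, adjusted p = 0.0236). That call was lost with the same term, and without replicate 2 or 3 of either group. Treh, which splits the blood sugar trehalose, stood at 538, 542 and 512 CPM against 250, 217 and 282 CPM (log2 change 1.08 ± 0.09, adjusted p = 1.03e-08). Ddc, the decarboxylase that makes dopamine and serotonin, stood at 621, 606 and 528 CPM against 884, 798 and 954 CPM (log2 change -0.66 ± 0.11, adjusted p = 0.000103), with a like difference in group-housed males (-0.82, adjusted p = 1.17e-05). Of 47 neuropeptide genes 15 were higher and 8 lower (48.9% called), and of 27 monoamine genes 11 were higher and 3 lower (51.9%). Over all genes 42.1% were called, 18.7% higher and 23.4% lower. The monoamine genes are long, with a median of 4428 exonic bases against 2013 over all genes, and the part of length was not tested. Among 27 heat shock and chaperone genes tested, 5 were higher and 3 lower (29.6% called, under the 42.1% of all genes). Hsp26 and Hsp22, small heat shock protein genes, were higher at log2 changes of 2.32 and 2.06. Hsc70-1 and Hsp60D were lower, at -1.85 and -1.24, and none of the 6 tested genes for inducible Hsp70 was called. In group-housed males 11 genes of this list were higher and none lower.

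Genes of synapses and of neuronal wiring were mostly higher by small amounts. Of 27 synaptic vesicle and active zone genes, 20 were higher and none lower (74.1% called), with a median log2 change of 0.43. Over all genes 42.1% were called, 18.7% higher and 23.4% lower, and the median was -0.06. cpx (complexin, a clamp on vesicle fusion) stood at 4161, 4468 and 4389 CPM in dsx and 2356, 1415 and 1858 CPM in CS (log2 change 1.12 ± 0.19, edgeR adjusted p = 9.55e-05). Snap25, a SNARE protein of vesicle fusion, had a log2 change of 1.04 ± 0.21 (adjusted p = 0.000392), and Syt1, the calcium sensor of release, one of 0.86 ± 0.14 (adjusted p = 4.51e-05). The dpr, DIP, beat and side families encode cell surface proteins that pair neurons with their partners. Of their 54 genes 37 were higher and 1, dpr5, lower (70.4% called, median 0.36). DIP-alpha stood at 60.1, 61.7 and 61.2 CPM against 31.3, 18.8 and 25.5 CPM (log2 change 1.14 ± 0.21, adjusted p = 0.000179). In both cpx and DIP-alpha the lowest library was CS replicate 2. In group-housed males 7 of the 27 synaptic and 5 of the 54 wiring genes were called higher. With the mitochondrial share as a term none of the 27 and 2 of the 54 were called. Both lists hold long genes, with median exonic lengths of 5803 and 3515 bases against 2013 over all genes, and the median change was higher in longer genes over the whole table. The part of length in these counts was not tested.

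Genes of protein synthesis and respiration were mostly lower. Of 89 cytosolic ribosomal protein genes, 67 were lower and 4 higher (79.8% called, median log2 change -0.54). Of 73 mitochondrial ribosomal protein genes 49 were lower and 2 higher (69.9%, median -0.35). Of 70 nuclear genes of oxidative phosphorylation 56 were lower and 2 higher (82.9%, median -0.51). Over all genes 42.1% were called, 18.7% higher and 23.4% lower. RpL32 stood at 231, 211 and 200 CPM in dsx and 334, 500 and 438 CPM in CS (log2 change -0.85 ± 0.15, adjusted p = 0.000131). COX4, a cytochrome c oxidase subunit, stood at 263, 270 and 250 CPM against 436, 403 and 419 CPM (log2 change -0.73 ± 0.12, adjusted p = 4.66e-05). The higher members were paralogues at low levels. RpL22-like stood at 3.91, 2.20 and 3.07 CPM against 0, 0.0215 and 0 CPM, and COX4L at 1.65, 1.35 and 1.18 CPM against 0.124, 0.0858 and 0.128 CPM. The directions of these 3 lists held in group-housed males, where 35, 39 and 39 members were lower. With the mitochondrial share as a term 28, 17 and 31 members were called lower. All 3 lists hold short genes, with median exonic lengths of 916, 783 and 879.5 bases, and the median change was lower in shorter genes over the whole table. The part of length in these counts was not tested either.

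**Figure D3:**
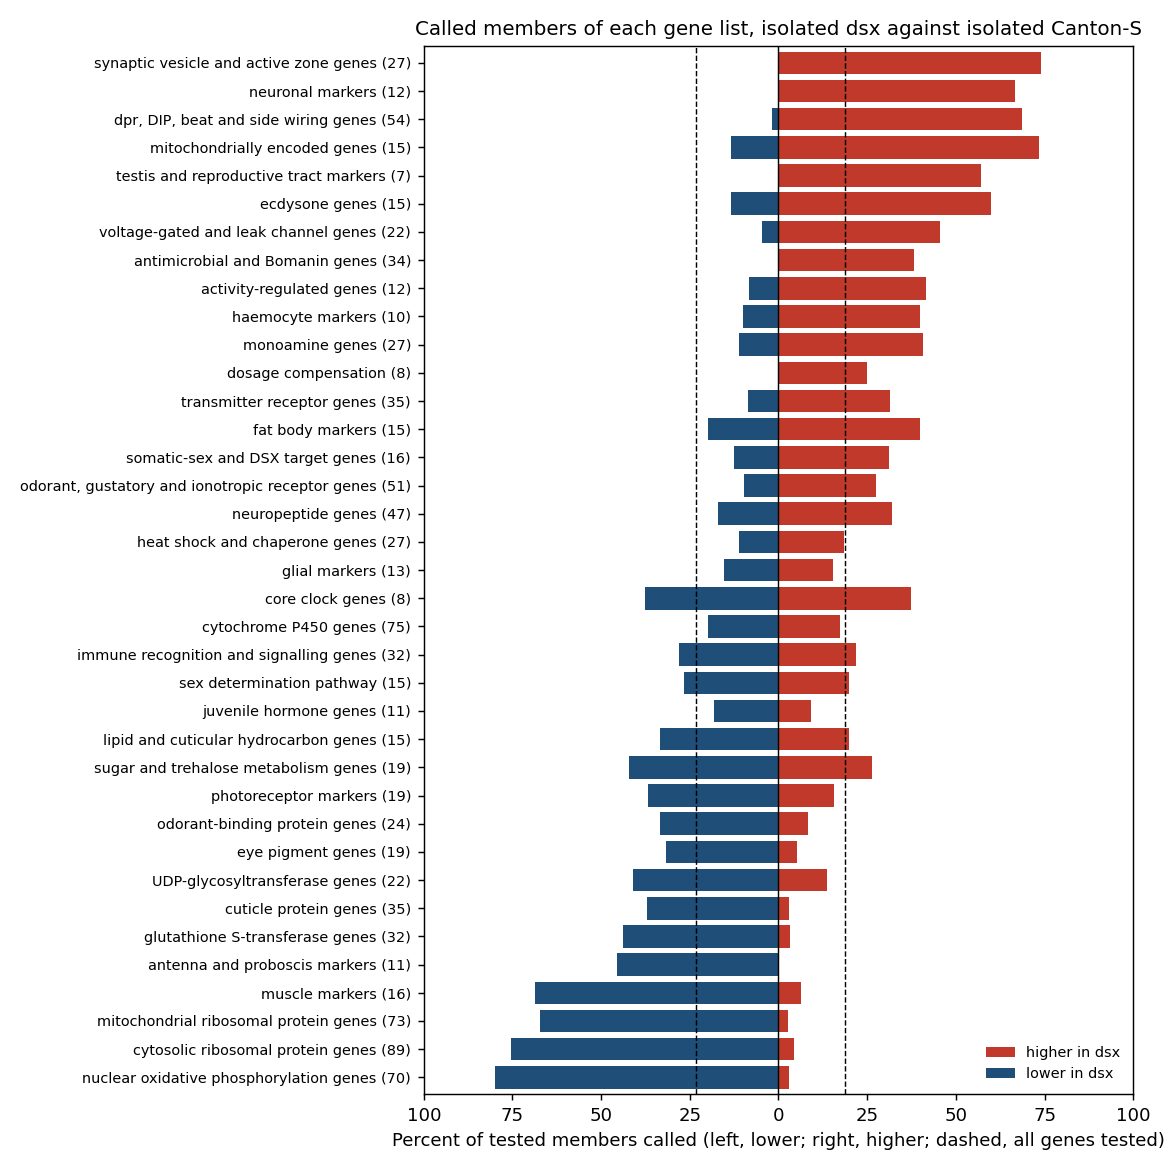
For each gene list with at least 7 tested members (number tested in parentheses), bars give the percent of members called higher (red, right) and lower (blue, left) in isolated dsx males, and dashed lines give the same over all genes tested (18.7% and 23.4%). Synaptic, wiring and mitochondrially encoded genes lie to the right, and ribosomal protein and oxidative phosphorylation genes to the left.

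Transcripts of the mitochondrial genome rose against these nuclear genes. Of 15 tested, 11 were higher and 2 lower (86.7% called, against 42.1% of all genes), with a median log2 change of 2.41. mt:ATPase6, a subunit of the ATP synthase, stood at 4681, 4960.1 and 4442 CPM against 427, 510.4 and 301 CPM (log2 change 3.43 ± 0.46, adjusted p = 5.9e-06). The 2 lower ones were mt:ND4L, at 0.905, 1.10 and 0.671 against 8.31, 5.88 and 6.24 CPM (log2 change -3.08 ± 0.25, adjusted p = 3.91e-09), and mt:ND6, at 1.71, 2.35 and 1.34 against 11.2, 10.1 and 6.48 CPM (-2.46 ± 0.40, adjusted p = 6.32e-05). Both are subunits of complex I, and mt:ND4L overlaps mt:ND4. In group-housed males 9 members were higher and the same number, 2, lower, with mt:ND4L at -3.59 and mt:ND6 at -2.35. The median log2 change there was 1.22.

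Position and length in the genome went with the direction of change. On chromosome 4, a small and largely heterochromatic chromosome, 71 of 102 tested genes were higher and 2 lower (71.6% called), with a median log2 change of 0.65. On the other arms 39.9% to 44.3% of genes were called. Relative to other nuclear genes, the median chromosome 4 gene stood at 0.47 to 0.50 log2 units above the mean library in the dsx isolated libraries, and at -0.07, -0.68 and -0.26 in the CS isolated libraries, the lowest being the AC library. The 6 dsx libraries spanned 0.32 to 0.50 and the other 24 spanned -0.72 to 0.20. In group-housed males 13 chromosome 4 genes were higher and 5 lower (median 0.19), and against the other isolated mutants 73 were higher and 3 lower (median 0.52). With the mitochondrial share as a term 5 were higher and 2 lower (median 0.26).

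Length is the other property. With genes in 5 classes of near equal size by exonic length, the median log2 change ran from -0.23 in the shortest (107 to 1073 bases) to 0.15 in the longest (3965 to 71820 bases), where 781 of 2252 genes were higher and 225 lower. The same medians in group-housed males were -0.19 and 0.09. The AC term ran the other way, from 0.20 to -0.18. Chromosome 4 genes are long, with a median of 3655 exonic bases against 2013 over all genes. In the longest class the median was 0.80 for the 46 genes of chromosome 4 and 0.14 for those of other chromosomes, and in the next it was 0.64 for 19 genes against 0.00. The part of RNA integrity or library preparation in the trend with length was not tested, since the sources used here give no measure of either.

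**Figure D4:**
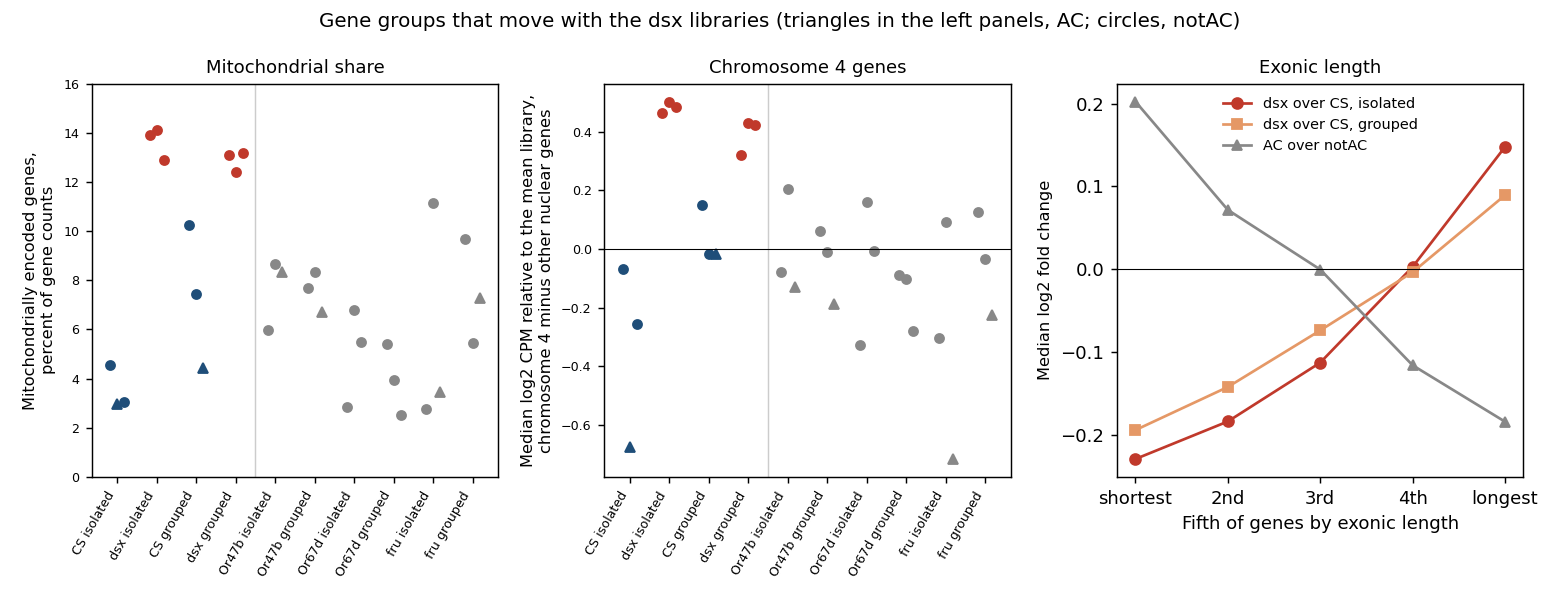
Left, percent of gene counts from the mitochondrial genome in each library; middle, median log2 CPM of chromosome 4 genes relative to the mean library, minus the same for other nuclear genes; right, median log2 fold change by class of exonic length for dsx over CS in both housings and for AC over notAC. The dsx libraries are the highest of all 30 in the left and middle panels, and the 2 dsx lines rise with length while the AC line falls.

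Antimicrobial peptide genes of the humoral immune response were higher in isolated dsx males at low and uneven levels. Of 34 antimicrobial and Bomanin genes 13 were higher in isolated dsx males and none lower (38.2% called). Over all genes 42.1% were called, 18.7% higher and 23.4% lower. In group-housed males none of the 34 passed the test. DptB, a diptericin, stood at 3.36, 0.525 and 12.4 CPM in dsx isolated and 0.0414, 0.0858 and 0.0365 CPM in CS isolated (log2 change 6.98 ± 1.18, edgeR adjusted p = 9.14e-05). In group-housed males it stood at 3.99, 4.01 and 14.3 CPM in dsx and 10.5, 6.72 and 8.65 CPM in CS, so the CS isolated libraries were the low group. AttC, an attacin, stood at 13.3, 2.65 and 35.9 CPM against 0.641, 2.62 and 0.475 CPM in isolated males and at 11.1, 12.2 and 34.4 CPM against 26.2, 13.5 and 24.9 CPM in groups. The test of the difference between housings did not call either gene (adjusted p = 0.0798 for DptB and 0.109 for AttC). The isolated Or67d mutant was low like CS, with a DptB mean of 0.0525 CPM, and the isolated fru and Or47b mutants were not, at 4.96 and 2.68 CPM. Levels among the dsx libraries differed by over 10-fold, and without dsx replicate 3 the list had 9 higher genes. From the 6 libraries alone, with no batch term, it had 6.

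Markers of muscle and photoreceptors were often lower in isolated dsx males, with counts that moved when single libraries were left out. In group-housed males no muscle and no photoreceptor marker was called. Of 16 muscle markers 11 were lower and 1 higher (75.0% called, against 42.1% of all genes). Their summed level was 188 to 240 CPM in dsx and 216 to 484 CPM in CS. Mhc, muscle myosin, stood at 9.46, 5.15 and 2.48 CPM against 15.3, 61.4 and 47.4 CPM, and without CS replicate 3 its call was lost and the list had 5 lower genes. ninaE, the main rhodopsin of the eye, stood at 28.9, 19.4 and 25.4 CPM in dsx and 43.5, 816 and 517 CPM in CS. Of 19 photoreceptor markers 7 were lower and 3 higher (52.6%, against 42.1% of all genes). Without CS replicate 3 the counts were 2 and 2. Of 11 antenna and proboscis markers 5 were lower (45.5%, near the 42.1% of all genes), with 3 to 8 when a library was left out. CG34324 had no count in dsx and 1.80, 2609 and 8.89 CPM in CS, and Muc68D, a mucin gene, had 0.0197, 0 and 0 CPM against 2.65, 1299.8 and 4.98 CPM. Nearly all of both came from the AC library, and their calls (adjusted p = 0.02 and 0.0104) were lost under DESeq2, that of CG34324 also without CS replicate 3, without dsx replicate 1 or without dsx replicate 3. Markers of the labelled tissue were present in every library. The 12 neuronal markers summed to 17499 to 18036 CPM in dsx and 12430.0 to 12943 CPM in CS. Of these 12, 8 were higher and none lower (66.7%, against 42.1% of all genes). They are long genes, with a median of 7144 exonic bases against 2013 over all genes, and the part of length was not tested. Of 13 glial markers 2 were higher and 2 lower (30.8%, under the 42.1% of all genes), among the latter the glial transcription factor repo (log2 change -0.47, adjusted p = 0.00285). Of 10 haemocyte markers 4 were higher and 1 lower (50%, near that of all genes).

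Group-housed males gave a smaller count for the same genotypes. There, 2449 genes (21.7%) were called, 711 (6.31%) of them past 2-fold, with 915 (8.12%) higher and 1534 (13.6%) lower, a split of 37.4% higher that stood at 58.8% when limma was run on the deposited normalized values. In both housings 1955 genes were called in the same direction and 4 in opposite directions, which is 41.2% of the calls in isolated males and 79.8% of those in group-housed males. Of the 4745 genes called in isolated males 94.6% had the same sign in groups. Over all genes tested the 2 sets of log2 changes had a Pearson r of 0.69 and a Spearman rho of 0.71. These values describe genes that are not independent. The 2 sets compare different libraries, but both come from 1 fit with a shared AC term. The test of the difference between housings called 1 gene (0.00887%), CG10513, with 1506 genes at an unadjusted p under 0.05. CG10513 stood at 49.9, 56.0 and 46.2 CPM in dsx isolated and 98.9, 113 and 95.1 CPM in CS isolated, and at 54.3, 55.0 and 54.9 CPM in dsx grouped and 37.6, 39.5 and 36.5 CPM in CS grouped. DESeq2 called 101 genes for that difference and limma 12.

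**Figure D5:**
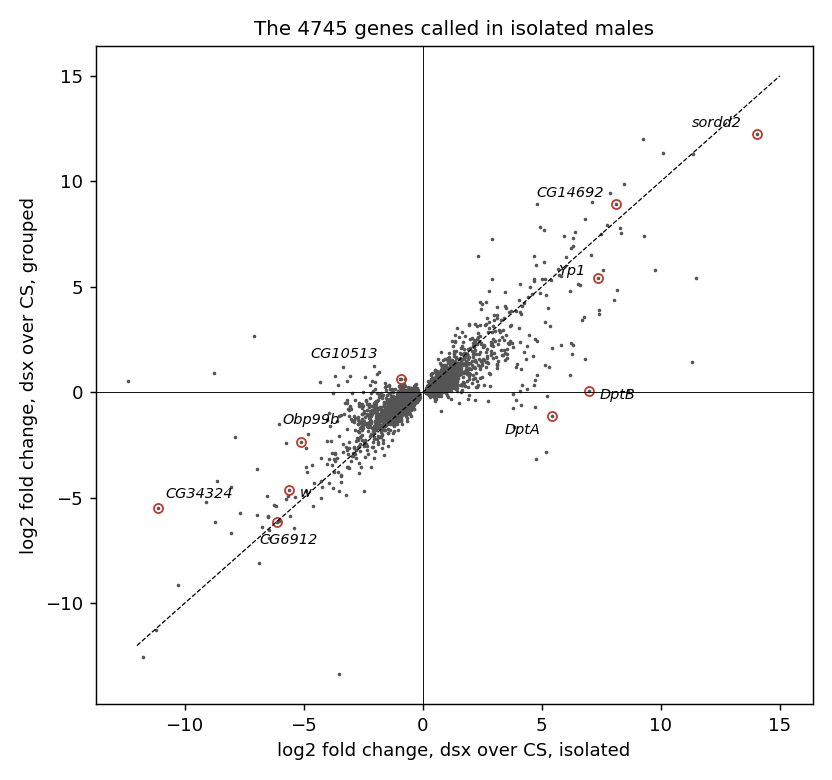
Log2 fold change of dsx over CS in isolated males (horizontal) and in group-housed males (vertical) for the 4745 genes called in isolated males; the dashed line marks equal change. Most points lie near the line, CG10513 lies in the upper left, and DptB and DptA lie near or below 0 on the vertical axis.

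Compared with the other isolated mutants, 3 libraries of each of 3 genotypes, dsx differed in 4826 genes (42.8%), 2197 (19.5%) higher and 2629 (23.3%) lower, and past 2-fold in 801 (7.11%). The CS libraries are not among the groups compared here, but they are part of the same fit and its AC term. mt:ND4L was lower there by a log2 change of -3.05 (adjusted p = 5.42e-10), sand by -3.11 (adjusted p = 1.54e-08) and per by -1.03 (adjusted p = 5.07e-08). CG14692 was higher by 8.78 (adjusted p = 2.9e-18), Nlg1 by 3.99 (adjusted p = 1.85e-12) and Yp1 by 7.56 (adjusted p = 4.57e-05). All these changes are from the mean of the 3 genotypes and need not hold against each. For sand the mean of isolated fru lay below every dsx isolated library. For Yp1 fru isolated replicate 3 lay above every dsx library.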

How the data were processed

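The authors deposited a table of estimated counts per feature, which holds expected counts since 11.9% of values were not whole, and a second table of scaled signal values called normalized counts, whose method is not stated. The submitters' processing notes name STAR, Salmon, DESeq2 and the build BDGP6, with no versions. Whether counting used strand is not stated. Of 24278 features, 17895 were genes, and 17855 matched the Ensembl release used for symbols and positions. Counts were rounded and fitted for all 30 libraries with edgeR 4.0.16 (R 4.3.3): filterByExpr on 10 groups, TMM scaling, quasi-likelihood F tests, a term for the AC dissection group, and Benjamini-Hochberg adjustment over 11269 genes. Calls were made at an adjusted p below 0.05. Standard errors were taken from the fold change and F. Intervals and floors of 3 counts cover counting error only. Medians by length used the 11259 genes with an exonic length. The procedure was tested on simulated data. Alternatives were DESeq2 1.42.0, limma 3.58.1 on log2(signal + 1), other scaling, filters, batch handling and left-out libraries; the mitochondrial share as a term was added after seeing the data. Named genes were the 15 higher and 15 lower by adjusted p without overlap, and dsx, fru and w. Up to 4 called members of each list, up to 6 genes near absence in a group and up to 8 within 500 kb of dsx were added. So were 4 each way in the other comparisons. Others (such as Yp1, bab1, Lsp2, apolpp, Mhc, ninaE, DIP-alpha and cry) were chosen from the lists after their values were seen. CG2678 was named for its place near dsx, also after its values were seen. The members and lists were chosen with earlier results of these data known. A promoter motif count was not run, since no promoter sequences were used here.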

Additional observations from a re-analysis of the deposited data

Results flagged for a closer look

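The change of CG10513 between genotypes differed between housings by -1.53 on the log2 scale (edgeR test of the difference, adjusted p = 0.000176). It was lower in isolated dsx males than in isolated CS males (log2 change -0.91, adjusted p = 1.32e-05) and higher in group-housed dsx males than in group-housed CS males (0.62, adjusted p = 0.00134). The 6 dsx libraries lay between 46.2 and 56.0 CPM in both housings, whereas the CS libraries lay at 95.1 to 113 CPM in isolation and 36.5 to 39.5 CPM in groups.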

How the results depend on the processing

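The count of genes called in isolated males lay between 4207 and 4843 under DESeq2 (4843), limma (4394), other scaling, no filter, other batch handling and the 6 libraries alone, and between 3827 and 4470 with a library left out. It was 1161 past 2-fold and 1124 with the mitochondrial share as a term. For group-housed males these were 711 and 1632, with 1651 to 2699 when a library was left out, the highest without CS grouped replicate 3. For dsx against the other isolated mutants they were 801 and 2210, with 3634 to 5270. The difference between housings gave 1 gene, 101 under DESeq2, 12 under limma, 2 with mitochondrial genes out of the totals, with the mitochondrial share as a term or with no filter, 4 within notAC, and 1 to 15 with a library left out. In isolated males 44.5% of calls were higher, 54.5% under limma and 49.6% with DESeq2's size factors in edgeR. Of 183 named genes, the mitochondrial share ended 81 calls and reversed the sign of lncRNA:roX1 (-0.28), Pdp1 (-0.068), CrebB (-0.014) and Met (-0.063), none of them called there; the cause was not tested beyond the larger standard errors. Every other setting ended 1 to 12 of the named calls. Equal replicate numbers did not pair the libraries: their deviations correlated at -0.155, -0.0496 and 0.0661, no dsx library correlated best with its own number, and a fit with the replicate number as a block called 4629 genes in isolated males, 2356 in groups, 1 for the difference between housings and 4793 against the other mutants. Depth limits genes near 0.02 CPM, the level of 3 counts over a group. The promoter motif was not run.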

Other observations

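Called detoxification genes were mostly lower in 2 families and split in the third. Of 32 glutathione S-transferase genes 14 were lower in isolated dsx males and 1 higher (46.9% called). Of 22 UDP-glycosyltransferase genes 9 were lower and 3 higher (54.5%). Over all genes 18.7% were higher and 23.4% lower. In group-housed males 7 of the former were lower and 2 higher, and 4 of the latter were called each way. The glutathione S-transferase genes are short, with a median of 888.5 exonic bases against 2013 over all genes, and the part of length was not tested. Of 75 cytochrome P450 genes 13 were higher and 15 lower (37.3% called, against 42.1% of all genes). Single members lay far apart: Cyp4p2 stood at 3.60, 2.90 and 3.35 CPM in dsx and 0.0414, 0.107 and 0.0913 CPM in CS (log2 change 5.73, edgeR adjusted p = 4.25e-09), and Ugt302E1 at 2.66, 2.27 and 2.26 CPM against 0.0620, 0.0858 and 0.0183 CPM (6.03, adjusted p = 1.17e-08). Both were called in the same direction in group-housed males.

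Of 15 ecdysone genes 9 were higher and 2 lower (73.3% called, against 42.1% of all genes). These genes are long, with a median of 8581 exonic bases against 2013 over all genes, and the part of length was not tested. Hr3, a nuclear receptor of the ecdysone response, stood at 536, 532 and 530 CPM in dsx and 303, 284 and 310 CPM in CS (log2 change 0.84, adjusted p = 0.000273), and EcR, the hormone's receptor, had a log2 change of 0.75 (adjusted p = 0.00068). In group-housed males 2 of the 15 were called higher and 1 lower, and with the mitochondrial share as a term none was called in isolated males. Among 51 odorant, gustatory and ionotropic receptor genes tested, 14 were higher and 5 lower (37.3% called, under the 42.1% of all genes). The taste receptor gene Gr61a was lower (log2 change -1.31, edgeR adjusted p = 0.00342). Several sweet taste receptor genes of the Gr64 cluster were higher at very low levels. Gr64f stood at 0.551, 0.475 and 0.589 CPM in dsx and 0.0207, 0.150 and 0.0365 CPM in CS (log2 change 3.47, adjusted p = 0.0012). It was higher in group-housed males too (4.75, adjusted p = 0.000444). With the mitochondrial share as a term the call of Gr64a was kept, and those of Gr64b, Gr64c, Gr64e and Gr64f were lost. The genes of this cluster overlap one another or lie close together, so their reads may be shared.

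Non-coding genes were counted apart from protein-coding ones. Of 738 non-coding genes tested 31.8% were called and 22.6% were called past 2-fold, against 42.9% and 9.26% of protein-coding genes. These shares were not tested against each other. Of the called genes, 59 had at most 3 counts over the CS isolated libraries and 59 at most 3 over the dsx isolated libraries.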
